A study of Rattus norvegicus with 6 samples.

Results

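The genes described here encode the proteins of the mitochondrial ribosome, the machine that translates the mRNAs of the mitochondrial genome. Members were all array probes whose gene symbol in the platform annotation begins with Mrpl or Mrps followed by a digit and is the probe's only symbol. There were 67 such probes, for 61 genes, among 33849 probes in the submitters' table. Single-colour CodeLink rat arrays measured the RNA of brainstem cells in culture from 2 rat strains. SHR, the spontaneously hypertensive rat, becomes hypertensive as it ages. WKY, the Wistar Kyoto rat, has normal blood pressure and serves as its usual control. Each strain had 3 arrays, and each array received RNA of cells pooled from 3 dishes. The design text calls the 3 pools of a strain independent and biological. No treatment is named, and the labels state no age, sex, litter or culture day, so what separates one pool from another is not known, and p-values measure the spread between these pools. The comparison asks how expression differs with strain, and every difference is given as SHR minus WKY on the log2 intensity scale.

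The mitochondrial ribosome has a small subunit, which binds and decodes the mRNA, and a large subunit, which forms peptide bonds. All of its proteins are made from nuclear genes and imported, and they assemble on ribosomal RNA that the mitochondrion transcribes itself. Its products are core subunits of the respiratory chain and the ATP synthase, and inherited defects of several of these proteins cause combined respiratory chain deficiencies that often affect brain and heart. Some of the proteins have bacterial counterparts and others are particular to mitochondria. Names do not always give the place, since Mrps30 and Mrps18a lie in the large subunit. By place, 40 of the 61 genes encode large subunit proteins and 21 small subunit proteins.

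Mrps27 belongs to the small subunit, has no bacterial counterpart, and is a pentatricopeptide repeat protein, a class that binds RNA. It is described first because it was singled out with its values known. The sequence shown is the part of its promoter window that lies before the annotated gene, from RefSeq on assembly GRCr8, chr2:32473954-32474177 on the plus strand, 5′ to 3′. Capitals mark a match to the letters CCGGAAG or their reverse complement CTTCCGG, the core bound by ETS factors such as GABP (nuclear respiratory factor 2), a known regulator of nuclear genes for mitochondrial proteins.
Mrps27: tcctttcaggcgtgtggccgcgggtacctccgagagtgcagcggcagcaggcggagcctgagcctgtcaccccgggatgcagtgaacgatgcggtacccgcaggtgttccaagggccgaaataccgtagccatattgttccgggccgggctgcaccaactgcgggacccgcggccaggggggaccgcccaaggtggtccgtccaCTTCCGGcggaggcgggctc
The match covers bases 205 to 211 of the 224 printed. In the 250 bases before the start site, searched on both strands, the GABP letters were found in 11 of the 52 member promoters with an entry (21.2%) and in 9.52% of 19005 protein-coding promoters. A match is a description of letters and no evidence of binding.

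Mrps27 has 2 probes, and they gave different results. Probe 114027 read 8.37, 8.64 and 8.69 (log2 intensity) on SHR arrays 1 to 3, and 11.23, 10.80 and 11.17 on WKY arrays 1 to 3. All SHR values lay far below every WKY value. In linear units these are 331, 399 and 414 in SHR and 2409, 1780 and 2302 in WKY. The SHR mean was 8.57 ± 0.17 (SD, n = 3) and the WKY mean 11.07 ± 0.24 (SD, n = 3). They differed by -2.50 ± 0.17 (SE), which is 5.65-fold, with a 95% interval of -2.92 to -2.08. This was the second smallest p of the whole table in limma (unadjusted p = 4.08e-06), and after Benjamini-Hochberg adjustment over all 33249 probes tested it stood just short of the threshold of 0.05, at adjusted p = 0.0528. The adjusted p lay between 0.00252 and 0.572 over the alternative settings, the highest with the replicate number as a block, while the difference stayed between -2.63 and -2.34.

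Probe 115015 of the same gene read 8.74, 8.99 and 9.09 in SHR and 8.89, 8.65 and 8.48 in WKY. In linear units these are 427, 510 and 545 in SHR and 473, 402 and 357 in WKY. All but SHR array 3 lay below the array median of 520 after normalization, as did probe 114027 on the SHR arrays. The groups overlapped, with WKY array 1 above SHR array 1. Its difference was 0.27 ± 0.17 (SE), against the direction of the first probe, with an interval of -0.13 to 0.67 (unadjusted p = 0.157 in limma). In the ratio of probe 114027 to probe 115015 within an array, a constant factor per array cancels. This ratio was -0.37, -0.35 and -0.40 (log2) in SHR and 2.35, 2.15 and 2.69 in WKY. The strains thus differed by -2.77 in this ratio, and the groups did not overlap (exact two-sided permutation test over the 6 arrays, p = 0.1, the smallest that 3 against 3 can give). Without single arrays the value lay between -2.89 and -2.62, and in intensities not normalized between arrays it was -2.74. The position of each probe in the Mrps27 transcripts was not analysed here.

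**Figure D1:**
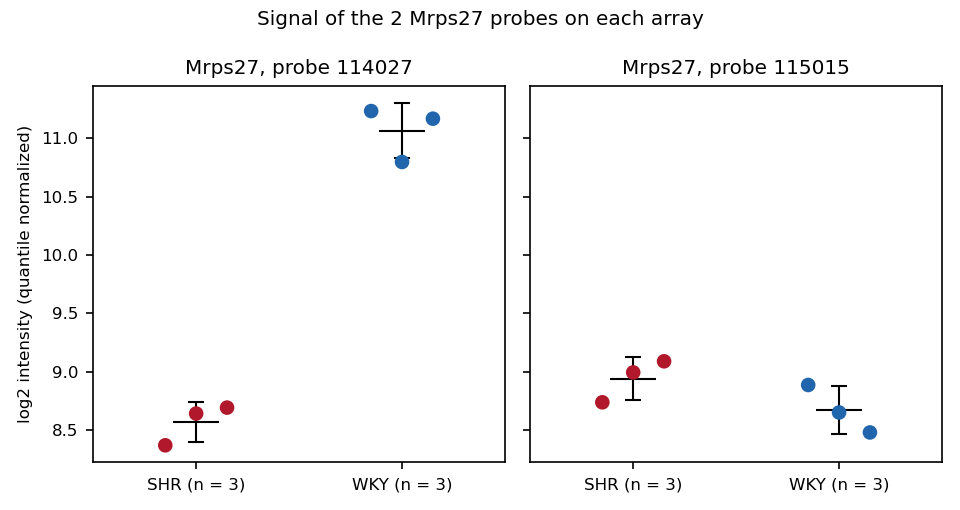
Log2 intensity of probes 114027 and 115015 of Mrps27 on each array, with the mean and SD of 3 arrays per strain. At probe 114027 the SHR arrays lie between 8.37 and 8.69 and the WKY arrays between 10.80 and 11.23, while at probe 115015 the strains overlap.

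Set against the other 65 member probes within each array, probe 114027 stood at -3.95, -3.66 and -3.71 (log2) relative to their mean in SHR and at -1.15, -1.41 and -1.19 in WKY. The difference between strains was -2.53 on this scale (exact two-sided permutation test, p = 0.1, again the smallest possible). For probe 115015 the same comparison gave 0.24 (exact permutation p = 0.3). Since probes differ in how strongly they bind, only the change between strains can be read from these distances, not the level of Mrps27 relative to the family.

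The rest of the family differed little between the strains. The 65 probes of the other 60 genes lay between -0.37 and 0.38, and none reached a difference of 1.5-fold, which 10.2% of all probes did. Of the 67 members, 1 differed by at least 2-fold, which 2.14% of all probes did (0.99% lower in SHR). The members were measured with less spread than the array as a whole, with a median SE of 0.14 against 0.19. The sets were not matched for intensity. The lowest array value was 7.72 (log2) among the members and 4.62 among all probes, which include dimmer ones. For 65 of the 67 the 95% interval of the difference lay within 2-fold in either direction, against 72% of all probes, and for 48 it lay within 1.5-fold, against 40%. The exceptions to the 2-fold bound were probe 114027 of Mrps27 and Mrpl48, a protein particular to the mitochondrial large subunit whose arrays ranged from 9.38 to 11.06 and whose interval ran from -1.48 to 0.74.

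**Figure D2:**
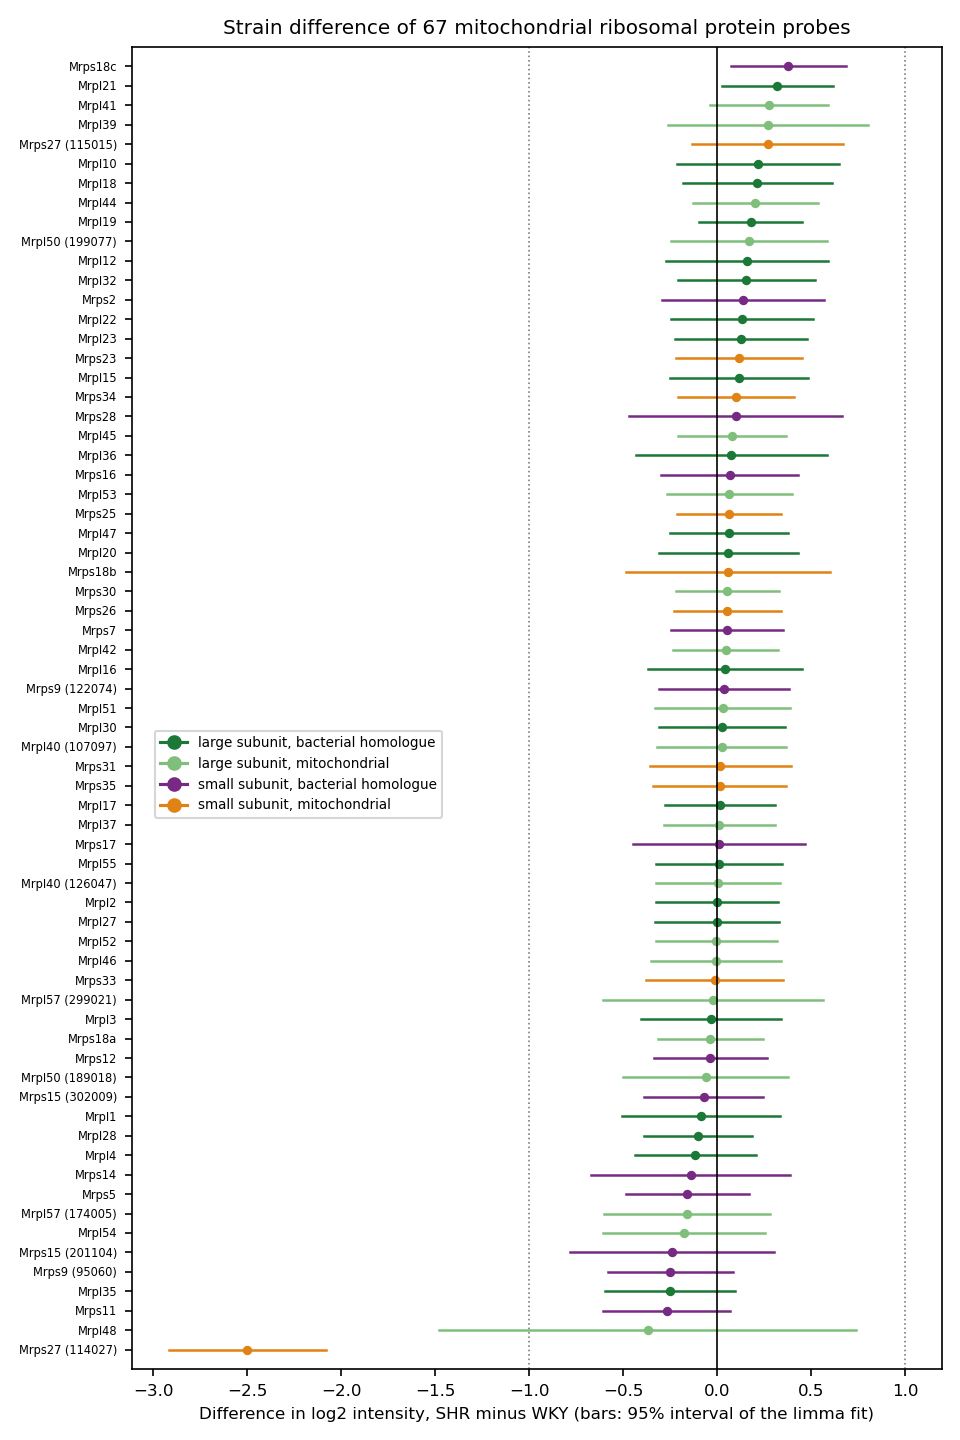
Difference in log2 intensity between SHR and WKY for each of the 67 member probes, ordered by size, with the 95% interval of the limma fit, coloured by subunit and by whether the protein has a bacterial counterpart. Dotted lines mark 2-fold. Probe 114027 of Mrps27 stands at -2.50, and the probes of the other 60 genes lie between -0.37 and 0.38.

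No member passed the adjusted threshold, as was true of all 33249 probes. At an unadjusted p under 0.05 there were 3 members (4.48%), where all probes gave 7.65%, or 2545 probes. Of these 3, 2 were higher in SHR (3.65% of all probes) and 1 was lower, namely probe 114027 of Mrps27 (4.01% of all probes). The strains did not overlap at 6 members, 5 higher and 1 lower in SHR (8.96%), against 13.8% of all probes (6.35% higher and 7.48% lower). Both totals were below the background, and the 5 members higher without overlap (7.46%) were near it.

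Mrps18c, the counterpart of bacterial protein S18 in the small subunit, was one of the 2 higher members. It read 9.22, 9.35 and 9.42 in SHR and 8.97, 9.02 and 8.86 in WKY, without overlap. Its difference was 0.38 ± 0.13 (SE), or 1.30-fold (unadjusted p = 0.0227, adjusted p = 0.582 in limma). Mrpl21, the counterpart of bacterial L21 in the large subunit, read 12.82, 12.77 and 12.92 in SHR and 12.60, 12.44 and 12.50 in WKY. Its difference was 0.32 ± 0.12, or 1.25-fold (unadjusted p = 0.0381, adjusted p = 0.629 in limma). When single arrays were left out, an unadjusted p under 0.05 was lost in 3 of 6 fits for Mrps18c and in 5 of 6 for Mrpl21.

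The other members without overlap were chosen after their values were seen, and their unadjusted p was above 0.05. Mrpl41, a large subunit protein particular to mitochondria, differed by 0.28 ± 0.13, with 13.18, 13.44 and 13.34 in SHR and 13.11, 12.96 and 13.04 in WKY. Mrpl19, the counterpart of bacterial L19, differed by 0.18 ± 0.11, and Mrps30 by 0.06 ± 0.11. In Mrps30 the strains were separated by a small margin within a narrow range, from 12.42 to 12.48 in SHR and from 12.36 to 12.41 in WKY.

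By place and origin, each group had a median difference close to 0. The 23 probes of large subunit proteins with bacterial counterparts had a median difference of 0.06 and a range of -0.25 to 0.32, and 16 of them lay above 0. The 20 probes of large subunit proteins particular to mitochondria had a median of 0.02, with 12 above 0. Small subunit proteins with bacterial counterparts (14 probes) had a median of -0.01 and 7 above 0, with Mrps11, the S11 counterpart, lowest at -0.27 (named, like Mrpl48, after its value was seen). The 10 probes of small subunit proteins particular to mitochondria, Mrps27 included, had a median of 0.06 and 8 above 0. Over all 67 members the median was 0.03 and 43 lay above 0 (64.2%), against a median of -0.01 and 48.4% above 0 over all probes. Without WKY array 2, named after its values were seen, 31 members lay above 0 (46.3%, against 47.2% of all probes) and the median was -0.01. The members' share was 55.2% without SHR array 1 and 58.2% without SHR array 3. Without SHR array 2, WKY array 1 or WKY array 3 it was 65.7% to 67.2%. In the per-sample intensities, which are not normalized between arrays, the median of all probes was 0.12, and the members' median stood 0.07 above it. There 60 members lay above 0 (89.6%), against 66.3% of all probes.

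The 4 most precisely measured members were Mrps30, Mrps25, Mrpl19 and Mrpl42. Mrps25, a small subunit protein particular to mitochondria, read 13.28, 13.24 and 13.25 in SHR and 13.19, 13.14 and 13.25 in WKY. Its difference was 0.06 ± 0.11, with an interval of -0.21 to 0.34. Mrpl42 differed by 0.05 ± 0.12, with an interval of -0.23 to 0.32. For both genes the strains overlapped, and a change beyond 1.5-fold lay outside the interval.

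Apart from Mrps27, 5 genes had a second probe, and none of them showed a gap of that size. For Mrps9, the counterpart of bacterial S9, the probes differed between strains by -0.25 and 0.04. For Mrps15, the S15 counterpart, the values were -0.24 and -0.07. Among large subunit proteins particular to mitochondria they were 0.02 and 0.003 for Mrpl40, -0.06 and 0.17 for Mrpl50 and -0.16 and -0.02 for Mrpl57. The ratio between the probes of a gene within an array differed between strains by at most 0.29 in these 5 genes (exact two-sided permutation p from 0.1 to 0.9). The p of 0.1 was that of Mrpl50, whose ratio was lower in all 3 SHR arrays than in any WKY array, by 0.23. Across the array, 3618 genes with 1 symbol had several tested probes. The median gap between their most different probes was 0.21, and 3 genes, Mrps27 among them, had a gap of at least 2.77 (0.0829%).

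**Figure D3:**
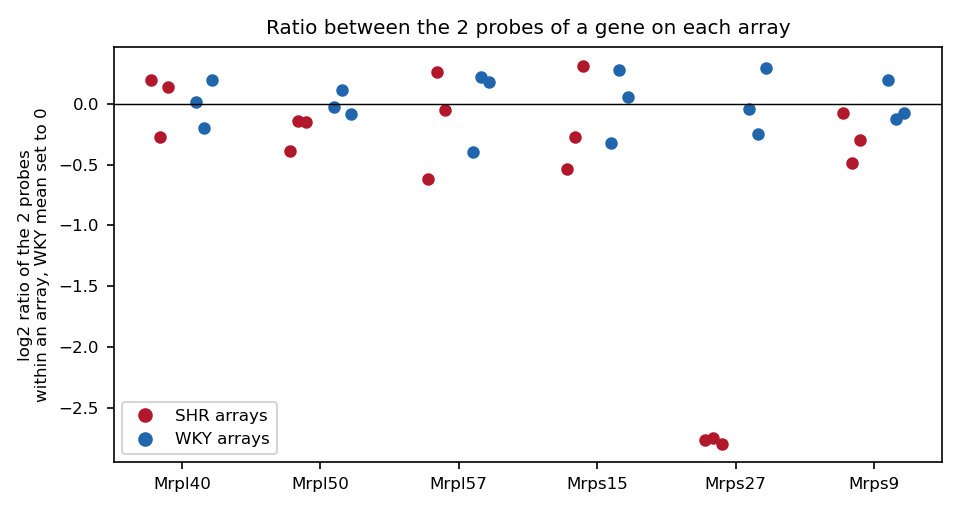
Log2 ratio between the 2 probes of each member gene that has a second probe, on each array, with the mean of the WKY arrays set to 0 for each gene. The SHR arrays of Mrps27 lie 2.77 below the WKY mean on average, and the strain means of the other 5 genes are at most 0.29 apart.

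Across single arrays the family moved within narrow bounds. Averaged over the 60 genes other than Mrps27, each centred on its own mean, the arrays stood at -0.00098, -0.014 and 0.072 in SHR and at 0.048, -0.13 and 0.021 in WKY. WKY array 2 was thus the lowest, and the range of the other WKY arrays lay within that of the SHR arrays. It held the lowest WKY value for 40 of the 60 genes. SHR array 2 held the lowest SHR value for 30 of the 60 genes. WKY array 2 was also lowest in each of the 4 groups by place and origin, at -0.13, -0.16, -0.08 and -0.10.

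**Figure D4:**
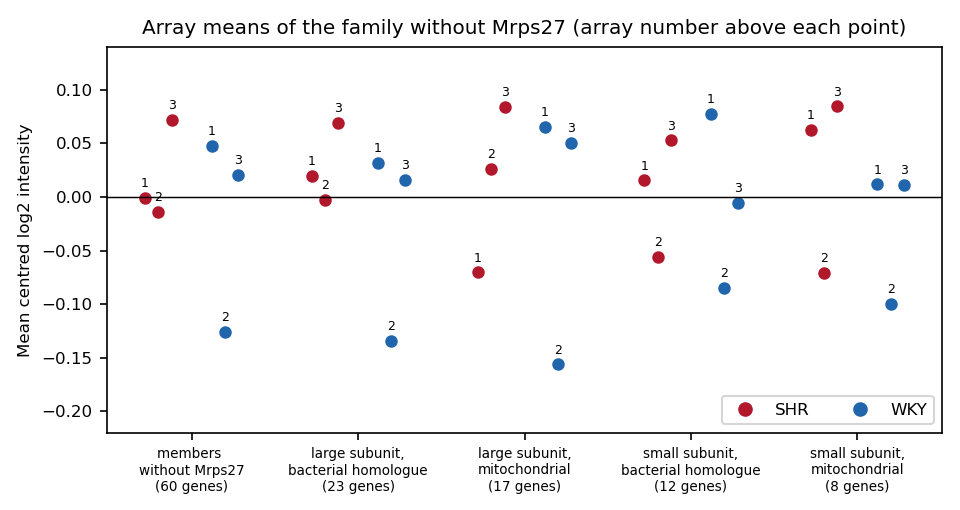
Mean centred log2 intensity of the 60 genes other than Mrps27, and of their 4 groups by subunit and origin, on each array (numbers give the array within its strain). WKY array 2 is the lowest point of every group, at -0.13 over all 60 genes, and the strains overlap in every group.

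Proteins of the mitochondrial ribosome that carry other symbols were measured for 5 of 5 genes, with 0 past an unadjusted p of 0.05 and a median of -0.04. The largest difference was that of Chchd1, a small subunit protein, at 0.22 ± 0.12. Its SHR arrays lay wholly above its WKY arrays, as in 6.35% of all probes. Of the 5, only Chchd1 lay above 0. Among 10 measured genes of the ribosome in which mutations cause inherited disease, 0 had an unadjusted p under 0.05 and the median was 0.08. Mrpl44, which has a ribonuclease III-like fold, differed by 0.20 ± 0.14, Mrpl12, of the stalk that recruits translation factors, by 0.16 ± 0.18, Mrps34 by 0.10 ± 0.13 and Mrps2 by 0.14 ± 0.18. Of the 10, 8 lay above 0. Mrps14, the counterpart of bacterial S14, was the lowest at -0.14 and is named after its value was seen. In each of these 5 named disease genes the strains overlapped.

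Other genes of the pathway were counted by the brightest complete probe of each gene, from lists drawn up with earlier results of these data known. Of translation factors, 6 of 13 were measured and 0 passed an unadjusted p of 0.05. Of the 6, 4 lay above 0 (48.4% of all probes did). In 2 of them, Mtrf1l and Taco1, SHR was higher without overlap, as in 6.35% of all probes. Mtrf1l, a release factor, was highest at 0.42 ± 0.18. Of mitochondrial aminoacyl-tRNA synthetases, 11 of 20 were measured, and 1 was higher and 0 lower at that p. This was Yars2, which charges the tyrosine tRNA, at 0.62 ± 0.25, with overlap between the strains. Of the 11, 10 lay above 0, and 1, Hars2, was higher in SHR without overlap. Of genes for ribosome assembly and rRNA modification, 15 of 20 were measured, and 1 was higher and 0 lower. This was Mterf3, a regulator of mitochondrial transcription and ribosome assembly, at 0.40 ± 0.14. Of the 15, 7 lay above 0, and 1, Mterf3, was higher in SHR without overlap, as were 6.35% of all probes. In the other direction, 2 were lower in SHR without overlap, as were 7.48% of all probes. These were Mrm1, an rRNA methyltransferase, at -0.33 ± 0.16, and Rbfa, a small subunit assembly factor, at -0.15 ± 0.12. Of genes for mitochondrial transcription and mRNA handling, 12 of 12 were measured, 10 lay above 0 (48.4% of all probes did), and 0 passed. In 3 of them the SHR arrays lay wholly above the WKY arrays, as in 6.35% of all probes. They were Tfb2m, a mitochondrial transcription factor, at 0.36 ± 0.15, Gabpa, the DNA-binding subunit of GABP, at 0.32 ± 0.15, with SHR array 1 level with WKY array 1 to 2 decimals, and Nrf1, at 0.26 ± 0.12. Over all probes, 3.65% were higher and 4.01% lower at an unadjusted p under 0.05, and adjusted p was 0.587 or more for each of these genes. WKY array 2 had the lowest mean centred log2 intensity for transcription genes (-0.23), translation factors (-0.19) and assembly genes (-0.06). For the synthetases it was WKY array 3 (-0.11).

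In the series as a whole, the arrays had median intensities between 439 and 571 before normalization between arrays, and 520 after it. Correlations between arrays were 0.969 to 0.980 within a strain and 0.964 to 0.977 between strains. Markers counted as measured if a probe had values above 0 on all 6 arrays. These were markers of astrocytes (8 of 8), microglia (8 of 8), oligodendrocytes (7 of 8), meningeal fibroblasts (8 of 8), endothelial cells (7 of 8) and neurons (5 of 8). Such a count does not show that a cell type was present. Some lay below the median of 520, among them Snap25 (37 to 104 units), Slc1a2 (76 to 188) and Lum (44 to 366). Summed marker intensity separated the strains for meningeal fibroblasts, at 41443 to 47864 units in SHR and 30274 to 37078 in WKY, and for neurons, at 12116 to 15732 and 11047 to 12013. Meningeal fibroblast markers had a median difference of 0.86, and 7 of 8 lay above 0, against 48.4% of all probes. At an unadjusted p under 0.05 in limma, 5 of these 8 were higher, against 3.65% of all probes. Among them Aldh1a2, a retinoic acid synthesis enzyme, differed by 1.49 (unadjusted p = 3.13e-05, adjusted p = 0.0853 in limma). Col1a1 (-0.02), Col1a2 (0.20) and Pdgfrb (0.22) did not pass, and their strains overlapped. A large part of the fibroblast sum was Fn1, at 12977 to 15995 units in SHR and 9185 to 12141 in WKY. The neuron sum was mostly Stmn2, at 10740 to 14009 in SHR and 9529 to 10735 in WKY. The other 4 neuron markers overlapped, from -0.59 for Snap25 to 0.16 for Nefm, and the median of the 5 was 0.03. The sums overlapped for oligodendrocytes (54379 to 101538 and 93936 to 109163), astrocytes, microglia and endothelial cells. Oligodendrocyte markers had a median difference of -1.01 and 0 of 7 lay above 0. Their mean centred log2 intensity was -0.67, 0.29 and -0.84 on SHR arrays 1 to 3. On WKY arrays 1 to 3 it was 0.44, 0.52 and 0.25, so SHR array 2 lay within the WKY range. At an unadjusted p under 0.05 in limma, 2 of these 7 were lower, against 4.01% of all probes. So was 1 of 8 astrocyte markers, Aldh1l1, and 0 neuron, microglia or endothelial markers passed in either direction. The part of these cell types in the strain difference at probe 114027 of Mrps27 was not tested. In bulk RNA, fewer cells of a type and less RNA per cell cannot be told apart. Of the 61 member genes, 20 have pseudogenes named after them in RefSeq, whose transcripts a probe may also bind. Mrps27 has none so named, and other sequences that its probes may bind were not examined.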

How the data were processed

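Per the series design text, the authors subtracted background from each spot's intensity in the CodeLink software, left out values less than 2 SD above the negative controls, and quantile normalized the arrays. The sources used here give no software version. The deposited series table holds this normalized intensity, with equal medians in all 6 columns, and was the source of the values. The deposited per-sample tables hold intensity that is not normalized between arrays, and served for alternatives. Values not above 0 (615 per column) were treated as missing, without an offset before log2. A probe was tested with 3 valid values in either strain and 2 or more in the opposite one. All 67 members had 6 valid values and were tested. The test was limma 3.58.1 in R 4.3.3 (lmFit, eBayes), two-sided, with Benjamini-Hochberg adjustment over 33249 probes, threshold 0.05. The limma fit was tested on simulated data, and the other steps were not.

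The members and lists were chosen with earlier results of these data known. Named were the probes of Mrps27, members with an unadjusted p under 0.05, genes with several probes, the 4 smallest SEs and the leading genes of each related list. Of the probes, 16753 have 1 symbol, 165 several and 16931 none. The number of arrays limits the precision. Figures were drawn with matplotlib 3.10.9.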

Additional observations from a re-analysis of the deposited data

How the results depend on the processing

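Probes past the threshold numbered 0 in the main setting, 17 with an offset of 50 before log2, 28 with a robust prior that follows intensity, 18 when the dimmest 25% were dropped, 13 at an adjusted p of 0.10, 10 with array weights, 9 with the brightest complete probe of each gene, 5 with probes valid on all 6 arrays, and 0 to 1 without single arrays (1 without SHR array 2). Members past the threshold numbered 0 in the main setting and without single arrays, and 1, probe 114027 of Mrps27, in each of the other 7 settings just named. The brightest-probe setting is no separate support, since it chose probes by their mean over all arrays. It kept probe 114027 through its WKY values (mean 11.07) and dropped probe 115015, the brighter one in SHR (8.94 against 8.57). With the per-sample intensities, whether not normalized, median-centred or fitted by cyclic loess, 0 members passed. In the fit with a replicate block 0 probes passed, 1 member (Mrps27, adjusted p = 0.572) had an unadjusted p under 0.05 against 3 without the block, and deviations of same-numbered arrays correlated at 0.0011, 0.22 and -0.13, so the numbers were not taken as pairs. Members with an unadjusted p under 0.05 numbered 1 to 3 without single arrays, and 1 without SHR array 2, SHR array 3 or WKY array 3. The members' median was 0.19 in the unnormalized intensities and -0.01 to 0.07 without single arrays.

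The differences of Mrps27 within arrays kept their direction in all alternatives run. Among genes with a second probe, some values near 0 changed sign, each with an unadjusted p above 0.05. In the unnormalized intensities Mrpl57 gave 0.0102 and 0.15, Mrps15 0.11 and Mrpl50 0.11. With median-centring, Mrpl57 gave 0.0025 and Mrpl40 -0.0025. With array weights the values were -0.0302 for Mrps9, -0.0065 and -0.023 for Mrpl40 and 0.0361 for Mrpl57. Without single arrays, the sign also changed for Mrpl50 (-0.16 to 0.084), Mrps9 (-0.028 to 0.12), Mrpl57 (-0.22 to 0.16) and both probes of Mrpl40 (-0.059 to 0.12 and -0.096 to 0.064). The causes were not tested.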
